A study of Rattus norvegicus with 12 samples.

Results

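The retinas of rats returned to good glycemic control (Rev group) were compared with those of age-matched nondiabetic rats (Norm group). The members are the 4 arrays titled for the Rev group and the 4 titled for the Norm group, 8 of the 12 arrays in the series, with 1 rat per array. The rats were male and of the Wistar strain, and diabetes had been induced with streptozotocin, a toxin of the insulin-producing cells of the pancreas. Rev rats were in poor control for 4 months and then, under insulin, in good control for another 4 months. The other 4 arrays come from diabetic rats in poor control for 8 months (Diab group); they entered the fit, and their values are given beside those of the Rev rats. Norm rats were nondiabetic, and whether they were given a vehicle is not stated in the sources used here. The Rev group therefore differs from the Norm group in the toxin, the diabetic period and the insulin together, and these cannot be told apart here. Whole retina was measured, so fewer cells of a type and less RNA per cell cannot be told apart either.

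Diabetic retinopathy is a disease of the small vessels and neurons of the retina that follows prolonged high glucose. The damage can go on after glucose is brought back to normal, a carry-over called metabolic memory. Long noncoding RNAs (LncRNAs) are transcripts without an open reading frame for a protein, and some of them regulate transcription, splicing or the stability of messenger RNAs (mRNAs). The question addressed is which retinal transcripts still differed from those of normal rats after the good control.

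RNA was hybridized in 1 color (Cy3) to an array with 10333 LncRNA and 28287 mRNA probes. A value in the text is a normalized signal, or a difference of such signals, on the log2 scale; a difference of 1 is a 2-fold change. Of the LncRNA probes 9632 were tested and 701 were not, and of the mRNA probes 27662 were tested and 625 were not. Those not tested were too dim or flagged on too many arrays. The files give these probes names but pair 0 of them with a gene symbol, so the transcripts are given by probe name. Short lists of retinal cell markers and of oxidative stress, mitochondrial, inflammatory and vessel growth genes were also set. For the genes on these lists 0 probes could be paired, and the tissue label was not checked. Only 30 of 50 probes from the manufacturer's general rat catalogue have a symbol here.

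The arrays differed in brightness along with the groups. The file headers give each group a scan identifier of its own, and the scan cannot be told apart from the group. Median signals ranged from 61.3 to 238 in the Norm group, from 140 to 374 in the Rev group and from 304 to 408 in the Diab group, and the dimmest 3 were Norm 3, Norm 4 and Rev 3. Correspondingly, 74.2% to 87.6% of LncRNA probes were well above background on the Norm arrays, against 89.8% to 92.3% on the Rev arrays. Rev 3 stood apart from the other Rev rats. Its residual SD over probes was 0.63 log2, against 0.24 to 0.38 on the other 11 arrays, and it held the highest or lowest of the 4 Rev values for 83.9% of LncRNA and mRNA probes. The median SD of an LncRNA probe among the Rev rats was 0.37 log2 with Rev 3 and 0.17 without it, and 0.27 among the Norm rats.

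**Figure D1:**
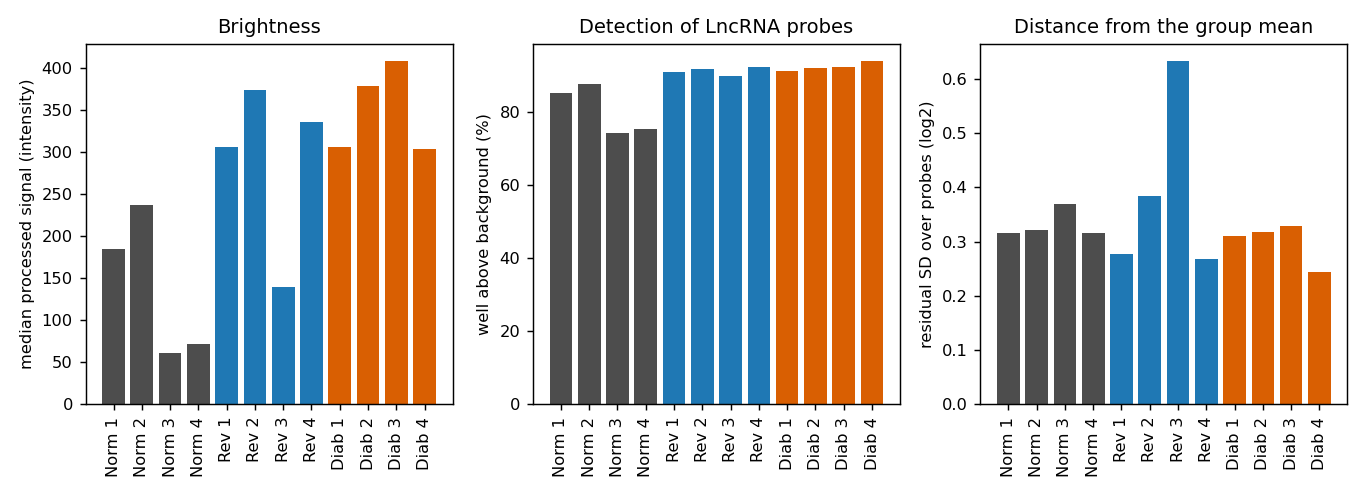
Median processed signal (left, intensity), percent of LncRNA probes well above background (middle) and residual SD over probes around the group mean (right, log2) for each of the 12 arrays, colored by group. Norm 3, Norm 4 and Rev 3 are the dimmest arrays, at 61.3, 70.9 and 140, and Rev 3 has the highest residual SD, at 0.63.

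The median difference between Rev and Norm was 0.01 log2 over LncRNA probes and -0.03 over mRNA probes, near 0 as quantile normalization sets it. The study criterion asks for a 2-fold change and a p below 0.05, and the sources used here do not name its test; limma was used for the p, unadjusted. At this criterion 293 LncRNA probes differed (3.04% of those tested), 231 higher in Rev rats (2.4%) and 62 lower (0.644%). Among the mRNA probes, 341 differed (1.23%), 291 higher (1.05%) and 50 lower (0.181%). With p adjusted over all 37467 probes tested, 252 had an adjusted p under 0.05 (0.673%). They include 117 LncRNA probes (1.21%), 79 higher (0.82%) and 38 lower (0.395%), and 132 mRNA probes (0.477%), 102 higher (0.369%) and 30 lower (0.108%). Of the 79 and 102 higher ones, 29 and 73 were well above background and unflagged on all 8 Norm and Rev arrays. Another 38 and 20 were well above background in no Norm rat. Those were tested only through their Rev and Diab arrays, so their p values describe them and test nothing. Unadjusted, the limma p was under 0.05 for 18.3% of LncRNA, 13% of mRNA and 14.4% of all probes. All the 4 Rev values lay above all the 4 Norm values for 661 LncRNA probes (6.88%) and below them for 314 (3.27%), and the counts for mRNA probes were 1239 (4.49%) and 895 (3.24%).

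The excess of higher over lower calls depends on how the arrays are brought to a common scale. When the arrays were scaled by their 75th percentiles and not by quantiles, this moved the median LncRNA difference to 0.26 and the mRNA difference to 0.08, and the calls at the study criterion became 775 higher and 15 lower for LncRNA, and 848 higher and 19 lower for mRNA. Dim signals were also set to a floor, the lowest value well above background on their own array. This turned the split, to 64 higher and 324 lower LncRNA probes and 186 higher and 295 lower mRNA probes. On average the floor lay higher on the Norm than on the Rev arrays. A probe at the floor in both groups thus comes out lower in Rev, and the split under the floor gives no direction. With normexp background correction the splits were 21 and 4, and 100 and 5. With array brightness as a covariate (chosen after seeing the data) they were 359 and 247 for LncRNA, and 540 and 655 for mRNA. The excess was thus on the higher side under each scaling, and on the lower side for mRNA with the covariate. It was also on the lower side for both classes under the floor, a setting that itself favors lower calls.

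**Figure D2:**
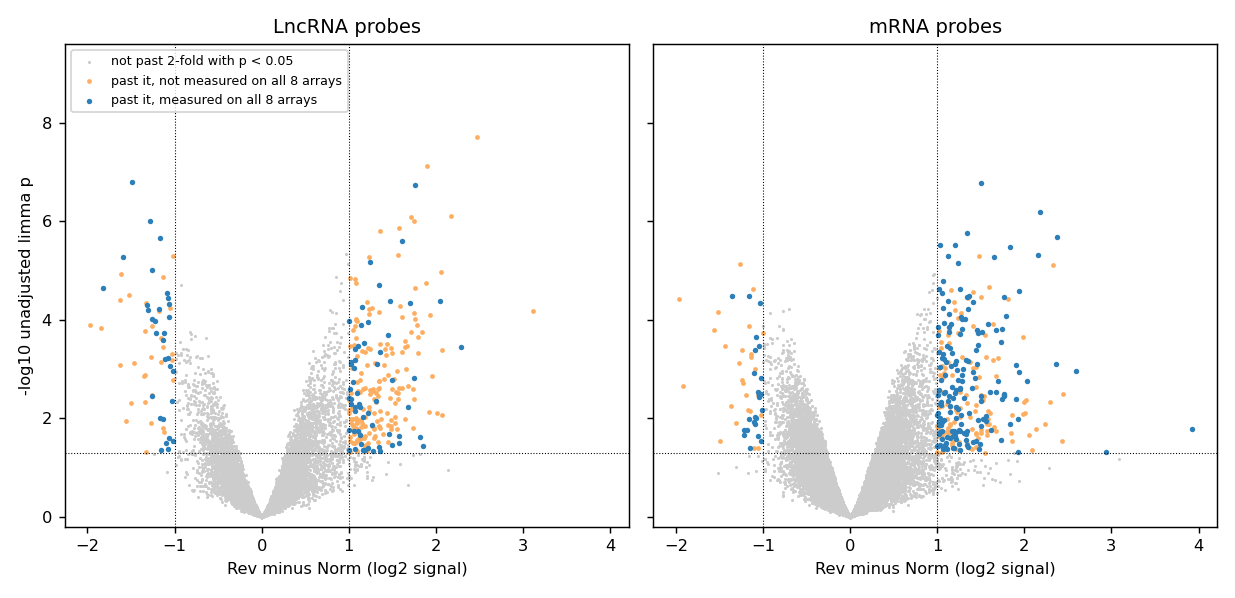
Difference between Rev and Norm (horizontal, log2 signal) against -log10 of the unadjusted limma p (vertical) for each tested LncRNA probe (left) and mRNA probe (right), with dotted lines at 2-fold and at p 0.05. Blue points pass both and were well above background on all 8 arrays, orange points pass both and were not; orange prevails among higher LncRNA probes, where 58 of 231 are blue, and 170 of 291 higher mRNA probes are blue.

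The calls that rest on a measured level in every rat are fewer. Over all probes tested, 7457 of 9632 LncRNA and 25475 of 27662 mRNA probes were well above background and unflagged on all 8 Norm and Rev arrays. Of the 231 higher LncRNA probes, 58 were well above background and unflagged on all 8 Norm and Rev arrays, and 118 did not exceed background clearly in any Norm rat. Those 118 passed the detection filter only through Rev and Diab arrays. Of the 62 lower LncRNA probes, 31 were measured on all 8 arrays. Among the mRNA probes, 170 of the 291 higher and 24 of the 50 lower ones were measured in every rat. Of the 291, 51 were well above background in no Norm rat and likewise passed the filter only through Rev and Diab arrays. The median fold of these measured calls was 2.27 for higher and 2.2 for lower LncRNAs, and 2.37 and 2.12 for mRNAs. Calls also gathered among dim probes. In the quartile with the lowest signal over all arrays, 5.44% of LncRNA and 3% of mRNA probes passed the criterion, against 0.678% to 1.89% in the other quartiles of either class. The part of array brightness in these dim calls was not tested.

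Within the Rev group, every rat stood away from the Norm mean over the measured calls. The members were chosen by this same difference, so the values describe them and test nothing. Over the 58 higher LncRNA probes the median distance from the Norm mean was 1.25, 1.55, 1.12 and 1.07 log2 in Rev 1 to Rev 4, and over the 31 lower ones it was -1.32, -1.17, -1.12 and -1.26. Over the 170 higher mRNA probes it was 1.35, 1.38, 1.29 and 1.08, and over the 24 lower ones -1.24, -1.12, -1.03 and -1.06. No Rev rat had a median near the Norm mean in any of these sets. Rev 3 lay outside the Norm range for the fewest probes, 41 of the 58 higher LncRNAs and 130 of the 170 higher mRNAs, whereas Rev 4 lay outside it for 53 and 164. The Diab rats, set against the same Norm arrays, had medians of 1.29 to 1.75 over the 58 higher LncRNAs and 1.37 to 1.79 over the 170 higher mRNAs.

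**Figure D3:**
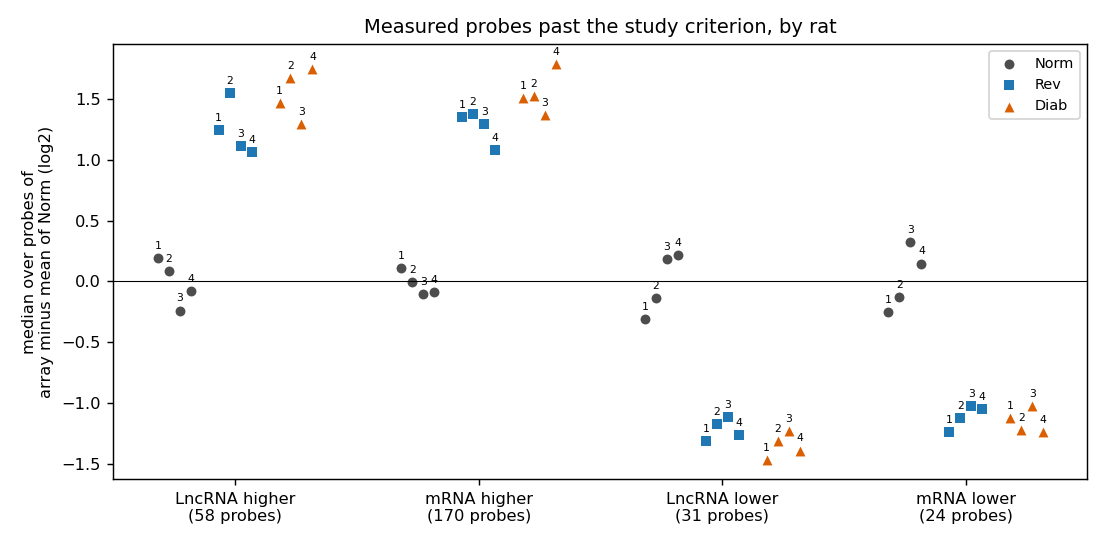
Median over the measured probes past the study criterion of each array's value minus the mean of the Norm arrays (log2, vertical), for higher and lower LncRNA and mRNA probes. Each symbol is 1 rat with its replicate number; Rev rats lie between 1.07 and 1.55 for higher LncRNAs and between -1.32 and -1.12 for lower LncRNAs, as the choice of probes requires of their mean.

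Which arrays are in the comparison decides part of these calls. Without the 3 dimmest arrays (chosen after seeing the data), 21 of the 58 higher LncRNAs, 14 of the 31 lower LncRNAs, 97 of the 170 higher mRNAs and 11 of the 24 lower mRNAs still passed the criterion. One lower LncRNA probe, 1 of 31, then had the opposite sign, and the others kept theirs. With array brightness as a covariate, also chosen afterwards, 29, 15, 93 and 8 passed, and 8, 1, 4 and 1 had the opposite sign.

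Among LncRNAs higher in Rev rats, 6 probes are described that had an adjusted p under 0.05, were measured on all 8 arrays and had no overlap between the groups. ASRNV20031249V3 had a signal of 8.79, 9.55, 7.86 and 7.89 in Norm 1 to Norm 4 and of 10.67, 10.71, 10.55 and 10.35 in Rev 1 to Rev 4. The Norm rats were spread over more than the Rev rats, which lay close together above them. Its mean rose from 8.52 ± 0.81 to 10.57 ± 0.16 (SD, n = 4 each), a 4.13-fold change (log2 difference 2.05, SE 0.34, adjusted p = 0.0195). ASRNV20035556V3 was at 5.18, 5.04, 4.93 and 4.68 in the Norm rats and at 7.02, 6.79, 6.47 and 6.59 in the Rev rats. Here both groups were tight, at 4.96 ± 0.21 and 6.72 ± 0.25, and the difference of 1.76 (SE 0.17) had an adjusted p of 0.00135.

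ASRN6LNC1A100003455V3 was at 9.82, 10.18, 9.65 and 9.9 in the Norm rats and at 11.59, 11.51, 12.03 and 11.19 in the Rev rats, with Rev 3 the highest (difference 1.70, SE 0.28, adjusted p = 0.0198). For ASRN6LNC1A100007338V3 the means were 7.25 ± 0.41 and 8.86 ± 0.25 (difference 1.62, SE 0.2, adjusted p = 0.00577). ASRNV20029982V3 and ASRN6LNC1A100001716V3 rose by 1.47 and 1.45, with adjusted p of 0.0195 and 0.0373. For the latter, Rev 2 at 11.59 stood above the other Rev rats, which lay between 10.54 and 10.87.

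Among LncRNAs lower in Rev rats, ASRN6LNC1A100004866V3 had the largest measured fall of those with an adjusted p under 0.05 and no overlap. Its signal was 8.11, 8.42, 7.6 and 7.69 in the Norm rats and 6.5, 6.56, 5.27 and 6.19 in the Rev rats. Rev 3 was the lowest, and without it the difference was -1.54 in place of -1.82 (SE 0.28, adjusted p = 0.016 with all arrays and 0.00858 without Rev 3). ASRNV20031757V3 was at 11.13, 10.72, 11.04 and 11.28 in the Norm rats and at 9.36, 9.85, 9.11 and 9.5 in the Rev rats. It is thus bright on every array, and its mean fell from 11.04 ± 0.24 to 9.45 ± 0.3 (difference -1.59, SE 0.21, adjusted p = 0.00724).

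ASRNV20029165V3 was at 8.88, 9.1, 8.66 and 8.58 in the Norm rats and at 7.41, 7.33, 7.25 and 7.29 in the Rev rats. The 4 Rev rats differed from each other by an SD of only 0.07, and the difference was -1.49 (SE 0.14, adjusted p = 0.00135). The other 3 lower LncRNAs were dimmer. ASRNV20032865V3 went from 4.83 ± 0.44 to 3.51 ± 0.27, ASRNV20027312V3 from 5.16 ± 0.33 to 3.85 ± 0.27 and ASRN6LNC1A100016520V3 from 4.73 ± 0.2 to 3.45 ± 0.17, with adjusted p of 0.0207, 0.0226 and 0.00367.

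Among mRNAs higher in Rev rats, ASRN6AP1B105987881V3 was at 11.15, 9.69, 10.51 and 10.62 in the Norm rats and at 13.42, 12.71, 12.68 and 12.67 in the Rev rats. Rev 1 was above the other 3 Rev rats, which agreed closely. The means were 10.49 ± 0.61 and 12.87 ± 0.37, a 5.2-fold change (difference 2.38, SE 0.29, adjusted p = 0.00549). ASRN6AP1B100086204V3 was at 6.78, 6.92, 6.14 and 6.04 in the Norm rats and at 8.81, 9.04, 8.12 and 8.61 in the Rev rats. Rev 3 was the lowest of the Rev rats but above every Norm rat, and the difference was 2.18 (SE 0.24, adjusted p = 0.00367).

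ASRN6AP1B101820755V3 was at 8.82, 8.63, 8.89 and 8.63 in the Norm rats and at 10.93, 10.68, 11.6 and 10.39 in the Rev rats. Rev rats spread more than Norm rats here, by an SD of 0.51 against 0.13, and the difference of 2.16 (SE 0.29, adjusted p = 0.00724) was 1.93 without Rev 3. Means of ASRN6AP1B100003637V3 were 8.37 ± 0.23 and 10.31 ± 0.56 (adjusted p = 0.0165), those of ASRN6AP1B100005351V3 were 6.83 ± 0.44 and 8.66 ± 0.33 (adjusted p = 0.00663), and those of ASRN6AP1B102491917V3 were 5.87 ± 0.24 and 7.65 ± 0.66 (adjusted p = 0.0258).

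The lower mRNAs changed less. ASRN6AP1B100010884V3 was at 8.26, 7.41, 7.63 and 7.96 in the Norm rats and at 6.12, 7, 6.45 and 6.26 in the Rev rats. Rev 2 came nearest to the Norm rats, and the difference was -1.36 (SE 0.22, adjusted p = 0.0184). ASRN6AP1B100858644V3 was at 5.33, 5.5, 6.12 and 5.84 in the Norm rats and at 4.46, 4.32, 4.74 and 4.62 in the Rev rats, which lay together below them (difference -1.16, adjusted p = 0.0184). The other 4, ASRN6AP1B106884805V3, ASRN6AP1B100106084V3, ASRN6AP1B100101173V3 and ASRN6AP1B100043290V3, had differences of -1.07, -1.03, -1 and -0.99 and adjusted p of 0.0398, 0.0198, 0.0321 and 0.0487. For ASRN6AP1B106884805V3 the groups nearly met, with Rev 3 at 6.79 and Norm 1 at 6.94.

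**Figure D4:**
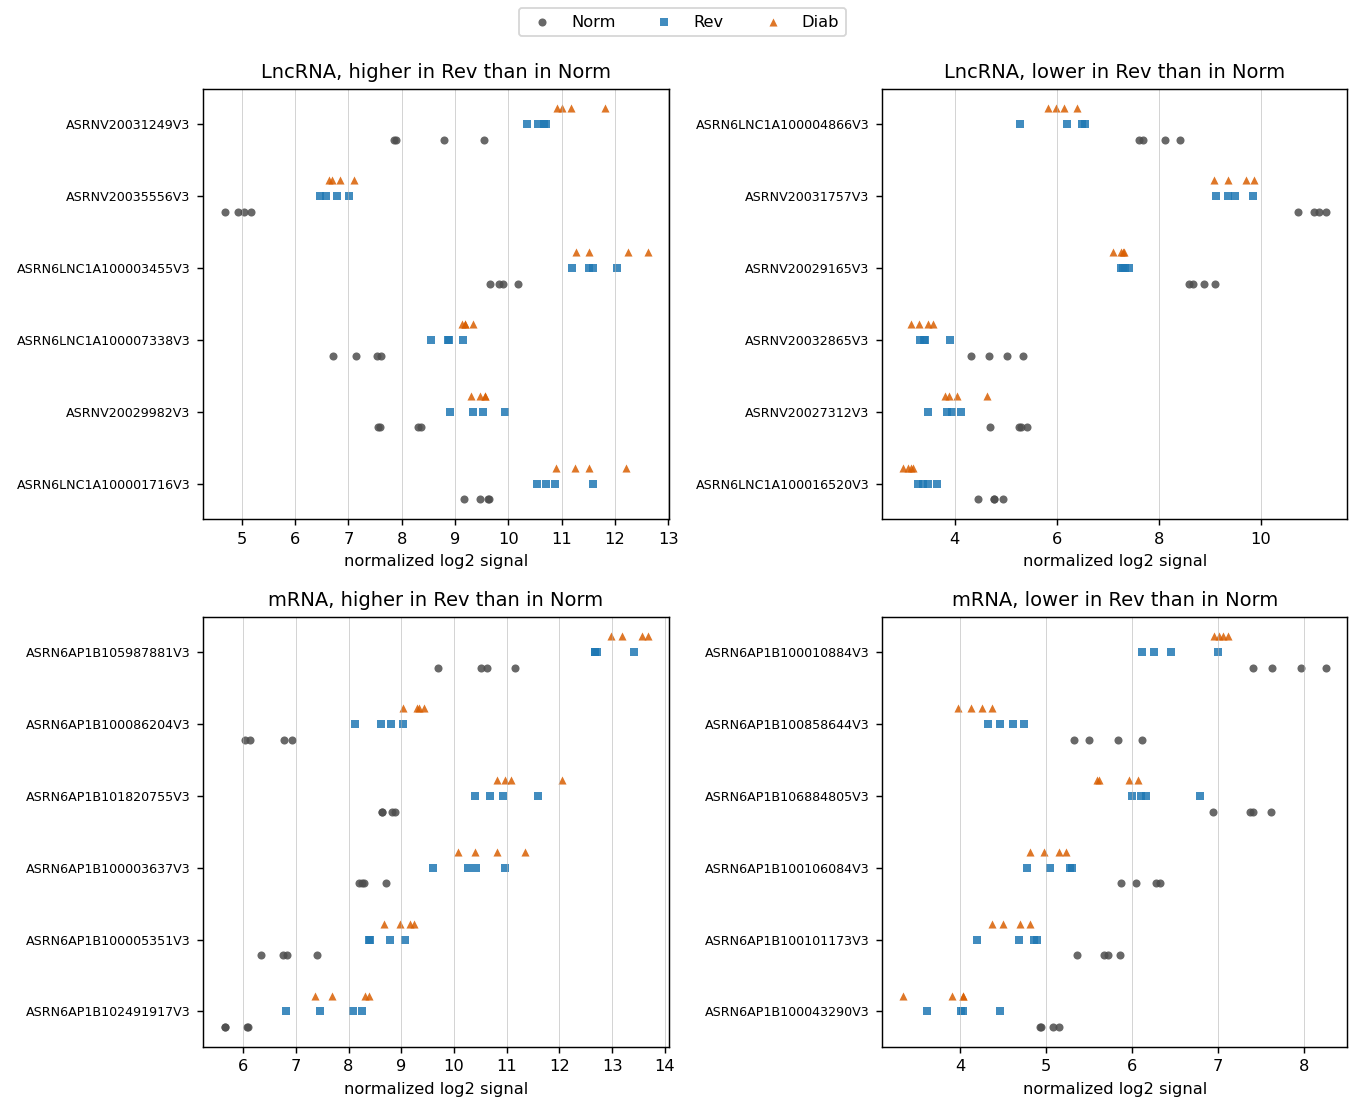
Normalized log2 signal (horizontal) of the 24 named LncRNA and mRNA probes in each of the 12 rats, with circles for Norm, squares for Rev and triangles for Diab rats. Norm and Rev rats do not overlap for any probe, by the rule that chose them; the narrowest gap is that of ASRN6AP1B106884805V3, with Rev 3 at 6.79 and Norm 1 at 6.94.

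The Diab rats give the level that these 24 transcripts had in rats without the good control. Rev and Diab were each set against the same Norm arrays, so their agreement is not independent. ASRNV20031249V3 averaged 11.23 ± 0.41 in the Diab rats and 10.57 ± 0.16 in the Rev rats, and ASRN6AP1B105987881V3 13.35 ± 0.33 and 12.87 ± 0.37. ASRNV20029165V3 averaged 7.25 ± 0.1 in the Diab rats against 7.32 ± 0.07 in the Rev rats. In the direct comparison of Rev with Diab, 0 of the 24 probes had an adjusted p under 0.05 and 3 had an unadjusted limma p under 0.05. One of the 3 was ASRN6AP1B100086204V3, 0.63 lower in Rev than in Diab rats (-0.63, SE 0.24, adjusted p = 0.994), 1 was ASRN6LNC1A100016520V3 (0.35 higher, SE 0.15, adjusted p = 0.994), and 1 was ASRN6AP1B100010884V3 (-0.58, SE 0.22, adjusted p = 0.994). The last lay farther from the Norm rats in the Rev group, at 6.46 ± 0.39, than in the Diab group, at 7.04 ± 0.07. Most of the 24 had the other order. The Rev mean was below the Diab mean for every higher probe, by differences from -0.05 to -0.66. It was above the Diab mean for the lower probes except ASRNV20031757V3, ASRNV20027312V3 and ASRN6AP1B100010884V3. The probes share the same arrays, and this order was not tested. Over all 37467 probes, Rev and Diab differed at an adjusted p under 0.05 for 0 (0%) and at an unadjusted limma p under 0.05 for 642 (1.71%). Rev 3, with its residual SD of 0.63, is part of this comparison, and the counts are not given without it. A p above the threshold does not show that the levels were the same.

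Calls by adjusted p moved more than calls at the study criterion when single rats were left out, where the latter ranged from 250 to 431 for LncRNA and from 284 to 513 for mRNA probes. Without Rev 3, 1129 LncRNA and 2566 mRNA probes had an adjusted p under 0.05, and lower probes then prevailed, 771 of the LncRNAs and 1783 of the mRNAs. Without Rev 1 there were 34 and 21, without Rev 2 40 and 36, without Rev 4 44 and 42, and without Norm 4 43 and 25. Leaving out Norm 2 gave 64 and 67, Norm 3 gave 52 and 36, and Diab 4 gave 77 and 81. When the 4 Diab arrays were left out of the fit, 11 LncRNA and 6 mRNA probes remained. Of the 24 named probes 10 had an adjusted p under 0.05 in each of the 12 fits that left out 1 array, among them ASRNV20035556V3, ASRNV20029165V3, ASRN6AP1B105987881V3 and ASRN6AP1B100086204V3, and 7 had it without the Diab arrays. Without the 3 dimmest arrays 13 of the 24 had it, with array brightness as a covariate 15, and with normexp 15.

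**Figure D5:**
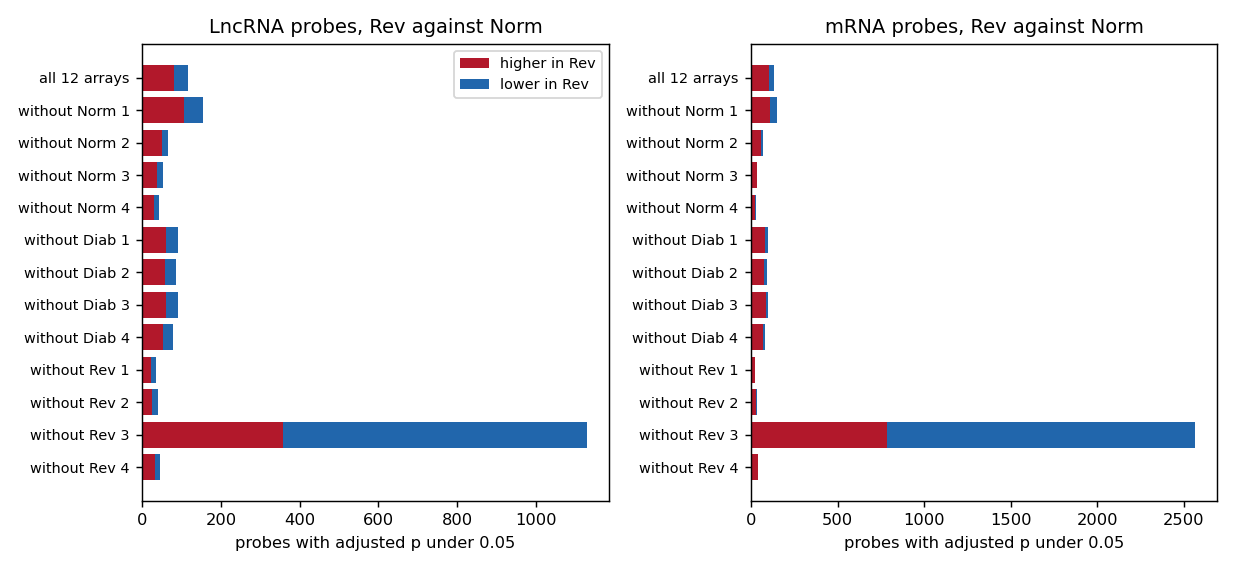
Number of LncRNA (left) and mRNA (right) probes with an adjusted limma p under 0.05 (horizontal), in red for higher and in blue for lower in Rev, with all 12 arrays and with each array left out in turn. The counts are 117 and 132 with all arrays and 1129 and 2566 without Rev 3, where lower probes prevail.

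Some measured changes were large but not shared by all rats. Among 7457 LncRNA and 25475 mRNA probes measured on all 8 arrays, 10 passed the criterion with a 4-fold or larger change. This set, chosen after its values were seen, includes 6 whose groups do not overlap and 4 with an adjusted limma p under 0.05. ASRN6AP1B100049749V3 was at 7.28, 7.01, 7.61 and 9.27 in the Norm rats and at 8.08, 15.58, 12.63 and 10.57 in the Rev rats. Rev 1 lay below Norm 4, and Rev 2 far above every other rat of either group. The mean difference was 3.92 (SE 1.42, adjusted p = 0.23). ASRN6AP1B100030799V3 was at 12.43, 9.37, 8.78 and 8.66 in the Norm rats and at 7.87, 15.63, 14.39 and 13.11 in the Rev rats. Rev 1 was thus the lowest of the 8 rats while the other Rev rats were the highest, and the difference of 2.94 (SE 1.35) had an adjusted p of 0.344. ASRN6AP1B100054544V3 showed a like order, with Rev 1 at 8.98 below Norm 1 at 9.83 and Rev 2 to Rev 4 between 11.33 and 12.01. The LncRNA ASRN6LNC1A100009056V3 was between 6.89 and 7.23 in the Norm rats and at 8.82, 10.49, 9.46 and 8.53 in the Rev rats, and its groups did not overlap (difference 2.29, SE 0.48, adjusted p = 0.0512).

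For probes that were well above background on all 4 Rev arrays and on 0 Norm arrays, the change has only a lower bound, the Rev mean divided by the dimmest detected level of each Norm array, that is, its lowest value well above background. At the study criterion there were 69 such probes among 231 higher LncRNAs (9632 tested) and 22 among 291 higher mRNAs (27662 tested). In either class, 0 lower probes were detected in all Norm rats and in no Rev rat. Probes undetected in Norm rats passed the detection filter only through Rev and Diab arrays, so their p values describe them and test nothing. Norm arrays also detected fewer probes than Rev arrays, and the part of this in the counts was not tested. The bounds are small because those lowest signals are close to the Rev levels. ASRN6LNC1A100007307V3 was at least 1.25-fold higher (Norm 2.78 ± 0.46, Rev 4.04 ± 0.13, adjusted p = 0.0226), ASRN6LNC1A100008523V3 at least 1.13-fold and ASRNV20037134V3 at least 1.09-fold. Of the mRNA probes, ASRN6AP1B108807323V3 was at least 1.39-fold higher (Norm 3.02 ± 0.17, Rev 4.18 ± 0.34, adjusted p = 0.0165) and ASRN6AP1B100002856V3 at least 1.1-fold. No fold is given for ASRN6AP1B100054680V3, whose bound is under 1 and whose difference turned to -0.12 under the floor. Without Norm 2 the bounds of ASRN6LNC1A100008523V3, ASRNV20037134V3 and ASRN6AP1B100002856V3 also fell under 1 (0.953, 0.918 and 0.924), as did those of the last 2 without Norm 1 (0.981 and 0.988).

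The LncRNA probes fall into families by name. Of the ASRNV probes 155 of 5192 passed (2.99%), of the ASRN6LNC1A probes 109 of 3567 (3.06%), and of the probes for transcribed ultraconserved regions, stretches conserved between mammals, 29 of 873 (3.32%), beside 3.04% of all LncRNA probes. Higher and lower calls were 121 and 34, 84 and 25, and 26 and 3. The last split turned to 4 higher and 40 lower under the floor, which lay higher on the Norm arrays and so favors lower calls. With the brightness covariate it was 26 and 38. Of the 29 ultraconserved region probes 4 higher and 0 lower ones were measured on all 8 arrays, as were 611 of the 873 tested. By adjusted p, 7 of the 873 fitted differences were above and 1 below 0. Over all LncRNA probes tested, 0.82% were higher and 0.395% lower by adjusted p. Some of the 7 were well above background in no Norm rat, so the split of 7 and 1 gives no direction. The 6 with the largest changes are named. Among these, uc.301- was measured on all 8 arrays, at 5.27, 5.03, 5.02 and 5.02 in the Norm rats and at 6.45, 6.72, 6.06 and 6.09 in the Rev rats (difference 1.25, SE 0.17, adjusted p = 0.00858). The probe uc.433- was not well above background in any Norm rat, so it passed the detection filter only through Rev and Diab arrays. In the Rev rats it was at 2.89, 3.79, 5.69 and 2.87, at least 1.08-fold higher with all 8 arrays. Rev 3 was the highest, and without it, or without Norm 1 or Norm 2, the bound is under 1 (0.698, 0.967 and 0.904), so no fold holds without them. The others were not measured on all 8 arrays. The fitted differences of uc.68-, uc.72+ and uc.254- were 1.90, 1.75 and 1.01, but none of these was detected in a Norm rat, their bounds are under 1, and under the floor the differences turned to -1.11, -0.96 and -0.64, so their direction is not given. The fitted difference of uc.451+, detected in 1 Norm and 1 Rev rat, was -1.34.

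Of the 30 catalogue probes with a gene symbol, 29 were tested and 27 were measured on all 8 arrays. Each has 10 spots, so the value on an array is precise (median SD between spots 0.036 to 0.096 log2), and the rats set the error. With limma, 0 of the 29 passed the adjusted p and 0 the study criterion, and 3 had an unadjusted p under 0.05. Differences ranged from -0.81 to 0.46 with a median of -0.09, and 11 were above and 18 below 0.

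Napepld, which makes N-acylethanolamines such as the endocannabinoid anandamide, was at 7.93, 7.93, 7.68 and 7.91 in the Norm rats and at 7.28, 7.69, 6.77 and 7.29 in the Rev rats. Rev 2 just exceeded Norm 3, so the groups overlapped (difference -0.60, SE 0.19, adjusted p = 0.174). P2rx2, an ion channel opened by extracellular ATP, was at 6.65, 6.46, 6.84 and 7.18 against 6.23, 6.22, 5.88 and 6.44. The groups did not overlap, by a narrow gap (difference -0.59, SE 0.22, adjusted p = 0.24). Eif4b, a factor that assists the start of translation, was at 9.55, 9.11, 9.6 and 9.77 against 10.12, 10.11, 9.66 and 9.96, where Rev 3 lay below Norm 4. Its difference of 0.46 (SE 0.17) had an adjusted p of 0.237, and 0.0427 without Rev 3.

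The remaining catalogue genes did not pass an unadjusted p of 0.05. For those measured on all 8 arrays, the intervals limit how far they may have moved. For Ldha, which turns pyruvate into lactate, the difference was -0.23 (95% interval -0.69 to 0.24), and for Pdk3, a kinase that holds back pyruvate dehydrogenase, it was -0.22 (-0.72 to 0.27). The neuronal genes Map2, of the dendritic cytoskeleton, and Dlg4, of the postsynaptic density, had differences of 0.40 (-0.11 to 0.92) and -0.09 (-0.55 to 0.37). For the growth factor Fgf2 it was 0.08 (-1.06 to 1.22). Nlrp3, the sensor of an inflammasome, and the growth factor Gdnf were well above background on only 2 of the 4 Norm arrays, and no difference is given for them. The widest spread among the Rev rats was that of LOC108352165, at 8.24, 8.22, 5.74 and 8.24, where Rev 3 alone lay apart.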

How the data were processed

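The authors hybridized Cy3-labeled retinal RNA to LncRNA arrays, and the scans were read by Feature Extraction of Agilent (version 11.0.1.1, per the file headers). The deposited processed signal is an intensity, background subtracted by that program and not normalized between arrays; the authors' quantile normalized values were not used here. Control spots and 2055 flagged spots were left out, 0 were saturated, and log2 signals were quantile normalized over 38804 probes and 12 arrays. A probe was tested when well above background on at least 3 of 12 arrays, with 2 unflagged arrays per group. One limma fit (version 3.58.1, R version 4.3.3, with the data.table package, version 1.17.8) of 3 group means, with 9 residual degrees of freedom, gave two-sided p values, Benjamini-Hochberg adjusted over all 37467 probes. It was tested on simulated data in which each probe had the same spread on every array, so an array like Rev 3 was not covered. Figures used matplotlib 3.10.9 under Python 3.11.15. Arrays are of separate rats, and 4 per group limit the precision.

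Members and lists were chosen with earlier results of these data known. Named were, per class and direction, the 6 largest changes with adjusted p under 0.05, measured on all 8 arrays, without overlap between groups; the 3 largest lower bounds; up to 6 ultraconserved region probes with adjusted p under 0.05; and catalogue genes, matched to symbols by RefSeq accession, with unadjusted p under 0.05. Catalogue genes given with intervals, and probes with 4-fold measured changes, were added after their values were seen. Alternatives were 75th percentile scaling, normexp (offset 50, on the median signal), other filters, a floor, other folds, array weights, a replicate block, only Norm and Rev arrays, class-wise adjustment, trended moderation and each array left out; leaving out the 3 dimmest arrays and a brightness covariate were added after the data were seen.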

Additional observations from a re-analysis of the deposited data

Results flagged for a closer look

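In 6 of 82 groups of 4 rats that were examined, 1 rat lay far from the other 3 by Dixon's test. Chance gives about 1 in 20 where groups are independent and not selected. Named probes were mostly chosen by these same values and share the same arrays, so that rate does not apply here. In the Rev group these were Rev 3 for ASRN6LNC1A100008523V3, at 3.32 log2 against 4.02 to 4.13, and Rev 1 for ASRN6AP1B105987881V3, at 13.42 against 12.67 to 12.71. In the Norm group Norm 1 stood apart for uc.72+, at 1.59 against 0.58 to 0.66, and for uc.301-, at 5.27 against 5.02 to 5.03. Norm 3 was low for the Napepld probe A_44_P451930, at 7.68 against 7.91 to 7.93. The residual SD of Norm 3 over all probes was 0.37, against 0.315 to 0.321 on the other Norm arrays.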

How the results depend on the processing

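The counts of calls moved with several choices, and the cause was not tested. LncRNA probes at the study criterion numbered 293 and were 790 with 75th percentile scaling, 25 with normexp, 88 and 89 with detection on all 12 or all 8 arrays, 990 at 1.5-fold, 191 without the 3 dimmest arrays and 606 with array brightness as a covariate (250 to 431 with 1 array left out). The mRNA count of 341 became 867, 105, 196 and 196, 1637 at 1.5-fold and 1195 with the covariate (284 to 513, the highest without Rev 3). LncRNA probes with an adjusted p under 0.05 numbered 117 and were 1228 with 75th percentile scaling, 25 with normexp, 217 with no detection filter, 38 and 39 with detection on all 12 or all 8 arrays, 190 with the positive flag, 11 with only Norm and Rev arrays, 1606 with array weights, 238 adjusted within the class and 260 with the covariate (34 to 1129). The mRNA count of 132 became 1630, 51, 255, 72 and 72, 222, 6, 3565 with array weights, 79 with a 2-fold minimum, 254 without the 3 dimmest arrays and 443 with the covariate (21 to 2566). Ultraconserved region probes at the criterion numbered 29 and were 83, 2, 4 and 4, 44 with the floor, 86 at 1.5-fold, 16 without the 3 dimmest arrays and 64 with the covariate (21 to 43). Catalogue genes with an adjusted p under 0.05 numbered 0 and were 1 with 75th percentile scaling and 2 with array weights (0 to 1).

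Of 252 adjusted calls, all 252 were among those made without Rev 3. Array weights gave Rev 3 a weight of 0.107, and lower probes then prevailed, 940 of LncRNAs and 2164 of mRNAs. Under the floor, signals become equal only within an array, and the floors lay higher on average on the Norm arrays. For probes undetected in Norm rats the sign under the floor therefore gives no direction. The 4 named probes that changed sign were ASRN6AP1B100054680V3 to -0.12, uc.254- to -0.64, uc.68- to -1.11 and uc.72+ to -0.96. For the 39 named probes over these alternatives, 769 differences kept their direction and their side of the adjusted p threshold, 216 (of 30 probes) kept their direction but missed it, and 3 newly passed it.

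Deviations of same-numbered Norm and Rev rats correlated at 0.11, 0.31, 0.52 and -0.14, and those of differently numbered rats at -0.54 to 0.5. These values do not settle whether the replicate numbers pair the rats. With the replicate block the counts were 315 and 350 at the criterion, 159 and 199 by adjusted p, 31 for ultraconserved regions and 0 for catalogue genes.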
